A study of Gallus gallus with 4 samples.

Results

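The genes described here are the EGF family ligands and the ERBB receptors, taken by gene name from a list of 10: the ligands EGF, TGFA, HBEGF, AREG, EREG and BTC and the receptors EGFR, ERBB2, ERBB3 and ERBB4. Of these 10, 9 were found among 19309 genes. No gene carried the name ERBB3, which was not analysed here. RNA came from granulosa cells, which form a layer around the oocyte in the ovarian follicle, of chickens (Gallus gallus) aged 10 to 15 months. There were 4 groups with 1 poly-A selected library each: F1 proximal, F1 distal, F5 proximal and F5 distal cells. F1 is the follicle nearest to ovulation and F5 an earlier one of the hierarchy, and proximal cells lie near the germinal disc, the small disc on the yolk with the oocyte nucleus. The labels call the cells natural and give neither a treatment, a strain nor the number of hens or follicles behind a library.

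Ligands of this family are made as membrane-bound precursors and are set free by proteases such as ADAM17. They bind ERBB receptors, which then pair and signal through the RAS-MAPK and PI3K-AKT cascades to drive cell division and survival. EGF, TGFA and AREG bind EGFR, whereas HBEGF, BTC and EREG bind EGFR and ERBB4. ERBB2 has no known ligand of its own and acts as a partner, and neuregulins bind ERBB4, some of them also ERBB3. In mammals AREG, EREG and BTC carry the ovulatory signal of luteinizing hormone within the follicle. In the hen, EGF-type signals from the germinal disc are held to drive the division of granulosa cells close by, and the design allows the genes to be set side by side by position and by follicle.

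Levels are given as FPKM (fragments per kilobase of gene, scaled to library size), which are scaled for gene length. A comparison between genes also rests on the gene models. Their lengths, as recovered from the FPKM values, were 6185 bases for EGFR, 2193 for ERBB2 and 447 for TGFA. How complete the models are was not tested. The libraries held between 13948790 reads (F1 distal) and 18020270 reads (F1 proximal). Whole reads could be recovered from the FPKM values, and intervals are 95% intervals from these reads (Poisson for a level, exact binomial for a ratio). These intervals hold counting error alone; variation between hens, follicles or preparations is not in them. Differences in bulk RNA do not tell fewer cells of a type from less RNA per cell. All 12 granulosa cell markers passed the filter of a mean of 1 FPKM over the 4 libraries. In F1 distal cells WT1, AMH and FST stood below that level, at 0.078, 0.508 and 0.588 FPKM. WT1 was also below it in F5 distal cells, at 0.376 FPKM. The summed level of the 11 leukocyte and blood cell markers found lay between 0.864 and 3.13 FPKM, with CD4, SPI1 and HBE1 at 0 in all 4 libraries. That of the 11 theca and stroma markers found was 2.65 FPKM in F1 proximal, 2.26 in F1 distal, 10.4 in F5 proximal and 8.57 in F5 distal cells, with LUM at 0 in all 4.

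One receptor stood far above every other member in each library. EGFR (ENSGALG00000012363, chromosome 2, 52411118 to 52558680) made up 94.6% to 96.9% of the summed FPKM of the 3 receptors found. Its level was 25.4 to 36.05 times that of ERBB2, the next receptor, and 5.001 to 10.05 times that of TGFA. Among the 6 listed EGF-type ligands TGFA had the highest level in each library, with 44.4% of their summed FPKM in F1 proximal, 77.2% in F1 distal, 49.2% in F5 proximal and 71.8% in F5 distal cells. In F1 proximal cells its interval overlapped that of HBEGF, and with neuregulins counted NRG1 stood above TGFA there, at 7.96 against 4.97 FPKM. In F1 distal cells NRG1, NRG4 and TGFA stood at 4.50, 4.39 and 4.33 FPKM, with overlapping intervals. In F5 proximal cells the interval of TGFA, at 8.33 FPKM, overlapped that of NRG4, at 7.60 FPKM. The order below TGFA differed by position. In proximal cells of both follicles it ran HBEGF, BTC, ERBB2, AREG, ERBB4 and EGF, whereas in distal cells ERBB2 and BTC stood above HBEGF. Among neighbours in this order, the counting intervals of HBEGF and BTC overlapped in both proximal libraries, as did those of ERBB2 and AREG and of AREG and ERBB4. In F5 distal cells those of BTC, ERBB2 and HBEGF overlapped as neighbours. EREG (ENSGALG00000010864, chromosome 4, 44141004 to 44149715), epiregulin, was listed at 0 in all 4 libraries.

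**Figure D1:**
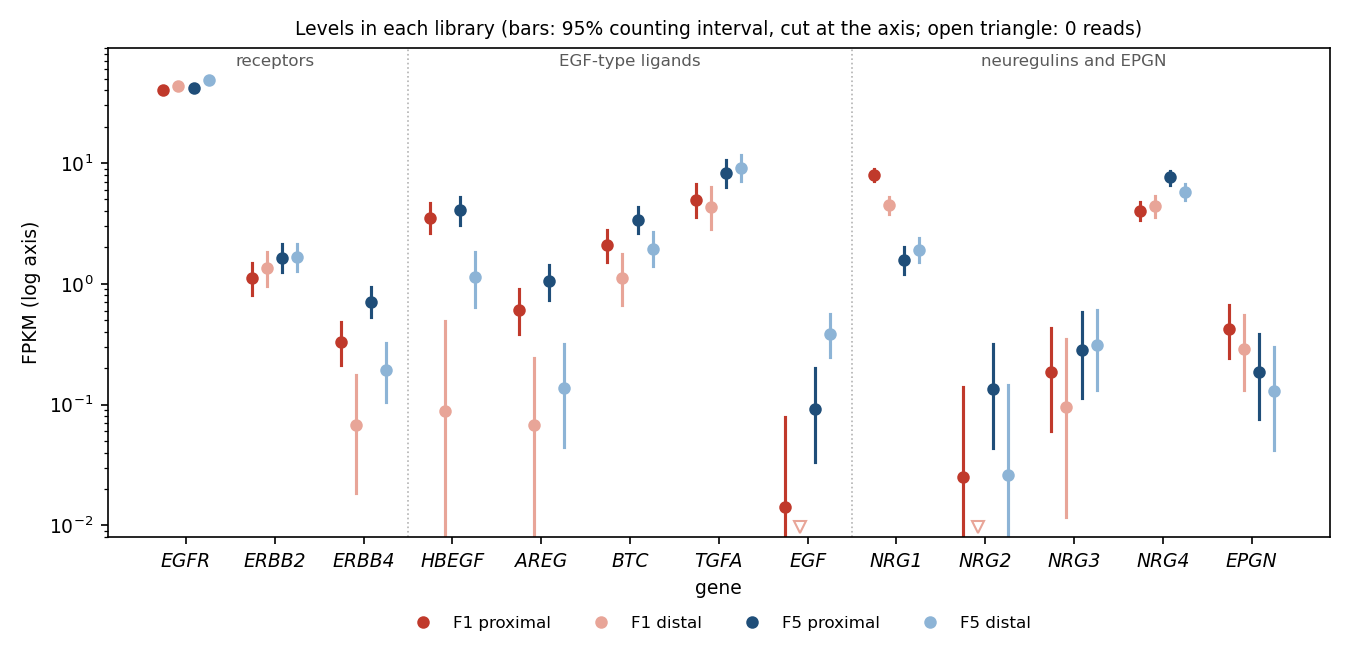
FPKM of each gene (log axis) in F1 proximal, F1 distal, F5 proximal and F5 distal cells, 1 library each; dots are levels, bars are 95% counting intervals cut at the axis, and open triangles mark 0 reads. EGFR lies between 40.1 and 48.8 FPKM in every library, while the proximal levels of HBEGF, AREG and ERBB4 lie above the distal ones in both follicles; EREG, at 0 throughout, is not drawn.

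Among the receptors, EGFR was close to even over the 4 libraries in FPKM as deposited, and less so by position after rescaling. It stood at 40.1 FPKM in F1 proximal, 43.5 in F1 distal, 41.6 in F5 proximal and 48.8 in F5 distal cells, on 3753 to 5241 reads. The proximal level was the lower one in both follicles, by a ratio of 0.923 in F1 (interval 0.883 to 0.964) and of 0.853 in F5 (0.819 to 0.888). These differences exceed counting error, but the fit over all genes with follicle as a block did not call them (log2 difference -0.17, SE 0.0987, limma adjusted p = 0.466). After median-ratio scaling the ratios were 0.761 in F1 and 0.786 in F5. The fitted difference was then -0.36 and was not called (limma adjusted p = 0.252). The authors' deposited log2 fold changes for EGFR were -0.35 in F1 and -0.32 in F5. ERBB2 (ENSGALG00000018828, chromosome 27, 4243297 to 4246638) stood at 1.11 FPKM in F1 proximal, 1.34 in F1 distal, 1.64 in F5 proximal and 1.66 in F5 distal cells, on 41 to 63 reads. The intervals of its proximal to distal ratio spanned 1 in both follicles, at 0.530 to 1.304 around 0.831 in F1 and 0.685 to 1.44 around 0.992 in F5. Another gene model without a name, at 0 in all 4 libraries, overlaps ERBB2 on the same strand.

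ERBB4, the receptor that neuregulins, HBEGF and BTC can bind, was low but uneven by position. ERBB4 (ENSGALG00000003126, chromosome 7, 3031382 to 3433912) stood at 0.330 FPKM in F1 proximal cells against 0.0681 in F1 distal cells, on 25 and 4 reads. In F5 the levels were 0.713 FPKM for proximal and 0.192 FPKM for distal cells, on 50 and 14 reads. The proximal to distal ratio was 4.84 in F1 (1.67 to 19.1) and 3.72 in F5 (2.02 to 7.29). ERBB4 did not reach a mean of 1 FPKM and was outside the fit; without that filter its position effect had a limma adjusted p of 0.255.

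The ligands split by position. HBEGF, AREG and BTC stood higher in proximal than in distal cells of both follicles, EGF stood lower in proximal cells of F5, and the counting intervals of the TGFA ratio spanned 1. HBEGF, heparin-binding EGF, is active both on the membrane and when shed. HBEGF (ENSGALG00000000949, chromosome 13, 961553 to 967753) stood at 3.54 FPKM in F1 proximal against 0.0879 FPKM in F1 distal cells, on 52 reads and 1 read. In F5 the level was 4.05 FPKM for proximal cells and 1.13 FPKM for distal cells, on 55 and 16 reads. The F1 distal level rests on a single read. The ratio was 40.25 in F1 (6.91 to 1620) and 3.58 in F5 (2.02 to 6.70).

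AREG, amphiregulin, lay below HBEGF in both proximal libraries and in F5 distal cells, and was not told apart from it in F1 distal cells, on 2 reads against 1 read. AREG (ENSGALG00000010866, chromosome 4, 44160594 to 44167571) stood at 0.601 FPKM in F1 proximal and 0.0676 FPKM in F1 distal cells, on 23 and 2 reads. In F5 its level was 1.05 FPKM for proximal and 0.136 FPKM for distal cells, on 37 and 5 reads. The proximal to distal ratio was 8.90 in F1 (2.20 to 77.9) and 7.71 in F5 (3.02 to 25.1). AREG lies on chromosome 4 in a run with EREG and EPGN, on the same strand, and of these neighbours EREG had no reads.

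BTC, betacellulin, showed a smaller ratio. BTC (ENSGALG00000028608, chromosome 4, 34063268 to 34068603) stood at 2.08 FPKM in F1 proximal against 1.12 FPKM in F1 distal cells, on 43 and 18 reads, and at 3.40 FPKM in F5 proximal against 1.96 FPKM in F5 distal cells, on 65 and 39 reads. Its ratio was 1.85 in F1 (1.04 to 3.41) and 1.74 in F5 (1.15 to 2.65). The F1 interval was barely clear of 1 before any rescaling. After median-ratio scaling the ratios were 1.53 in F1 and 1.60 in F5. F1 proximal and F5 distal cells had nearly the same level. Because 2 other gene models, GSR and 1 without a name, overlap BTC on the opposite strand and the counting is not stated to use strand, reads of these genes may not be told apart.

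EGF (ENSGALG00000012155, chromosome 4, 57631764 to 57683454), the ligand that names the family, was near the detection limit. It stood at 0.0141 FPKM in F1 proximal cells on 1 read and at 0 in F1 distal cells. There, 0 of 13948790 reads allows up to 3 reads, or 0.0546 FPKM, so that no ratio is given for F1. In F5 the level was 0.0915 FPKM in proximal against 0.381 FPKM in distal cells, on 6 and 26 reads, a ratio of 0.240 (0.0809 to 0.597). F5 distal cells were thus the library with the highest EGF level. TGFA (ENSGALG00000024024, chromosome 22, 3012325 to 3020413), transforming growth factor alpha, had a proximal to distal ratio of 1.15 in F1 (0.686 to 1.94) and of 0.910 in F5 (0.637 to 1.30).

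**Figure D2:**
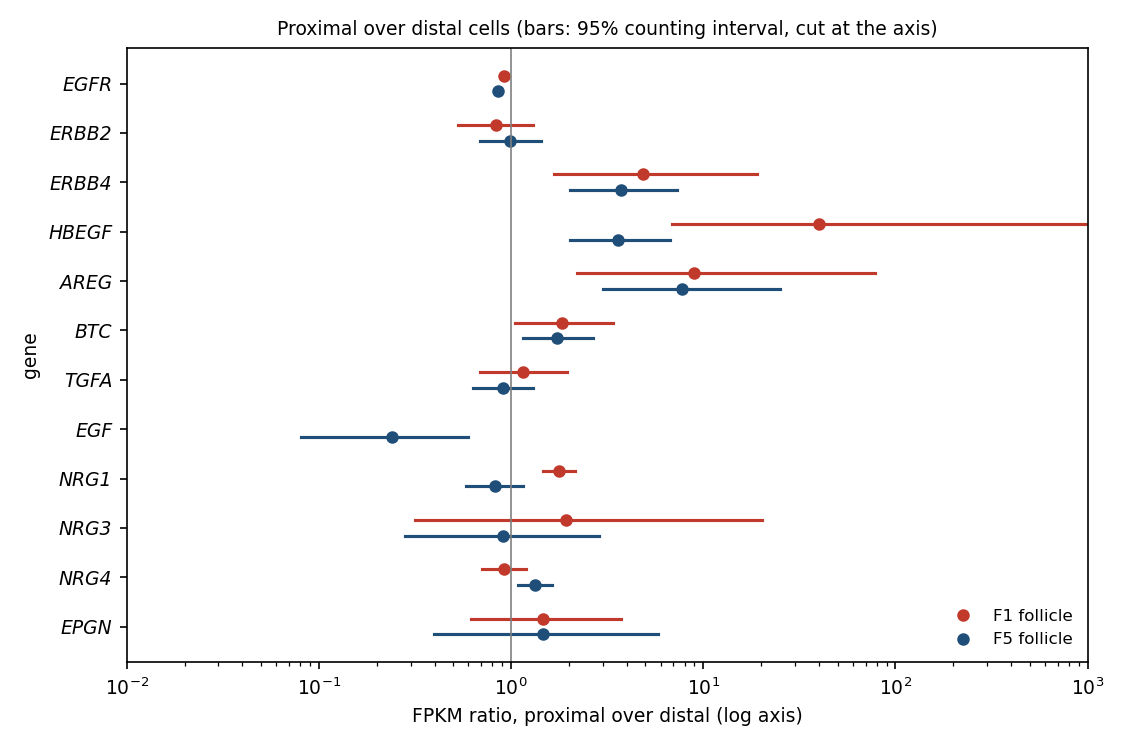
Ratio of FPKM in proximal over distal cells (log axis) for each gene in the F1 and the F5 follicle; dots are ratios of 1 library to 1 library and bars 95% counting intervals cut at the axis. ERBB4, HBEGF, AREG, BTC and EPGN lie to the right of 1 in both follicles, and EGFR and ERBB2 to the left. The intervals of EPGN and ERBB2 span 1 in both follicles. EGF has no ratio in F1, and NRG2 is not drawn.

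Counts of members were read against all genes. With a cutoff of 2-fold, taken on log2(FPKM + 1), 1 of the 5 members that passed the filter, HBEGF, was higher in proximal cells in each follicle, where 5.18% of 11203 genes were higher in F1 and 2.18% in F5. By the same rule 0 of 5 were lower in either follicle, where 0.303% of genes were lower in F1 and 0.321% in F5. HBEGF passed the filter through its proximal levels, at 3.54 FPKM in F1 and 4.05 FPKM in F5. Its distal levels were 0.0879 FPKM in F1 and 1.13 FPKM in F5, so its count only describes these levels. All genes went through the same filter. A rule added after the data were seen, an FPKM ratio of at least 2 with a counting interval clear of 1, took in genes with fewer reads. By it 3 of the 8 members with reads were higher in F1 proximal cells, where 10.5% of 16078 genes were. The same 3, HBEGF, AREG and ERBB4, were higher in F5 proximal cells, where 6.27% of 16445 genes were. EGF was the 1 member of 8 lower in F5 proximal cells, with 0.596% of genes, and 0 of 8 were lower in F1 proximal cells, with 0.522%. With 1 library a group, these ratios were not checked in replicates.

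In the additive fit of position over all 4 libraries (limma, follicle as a block), 0 of 5 tested members were called in either direction, as were 0% of the 11203 genes. The smallest adjusted p over all genes was 0.0832, 1535 genes had an unadjusted p below 0.05, and 0 genes were called when limma was run with voom weights on reads. HBEGF had a position difference of 1.65 on the log2(FPKM + 1) scale (SE 0.259, unadjusted p = 0.00325, limma adjusted p = 0.193). With a pseudocount of 5 FPKM in place of 1 its adjusted p was 0.0362, and over all alternatives it lay between 0.0362 and 0.377. Because HBEGF entered the fit through its proximal levels, these values only describe it and give no support for a difference. AREG and ERBB4 stayed below the filter and were not in this fit. BTC had a difference of 0.55 (SE 0.155, unadjusted p = 0.024, limma adjusted p = 0.33). Across all genes the median position difference was 0.14 as deposited and -0.04 after median-ratio scaling, and HBEGF stood at 1.59 and BTC at 0.43 after that scaling. The log2 fold changes in the authors' deposited table gave 5.09 for HBEGF in F1 and 1.75 in F5, and for AREG 2.92 in F1 and 2.85 in F5. For the family these values lay 0.24 below the log2 FPKM ratios in F1 and 0.09 below them in F5.

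Markers of granulosa cells and of other cell types moved with position as well. Of the 12 granulosa cell markers, 3 were at least 2-fold higher in F1 proximal cells and 2 in F5 proximal cells. By that rule 5.18% of all genes were higher in F1 and 2.18% in F5. WT1 stood at 4.51 FPKM in F1 proximal against 0.078 in F1 distal cells. In F5 it stood at 4.62 FPKM in proximal against 0.376 in distal cells. WT1 thus passed the filter through its proximal levels, and its part of these counts only describes levels. CYP11A1 and STAR stood lower in proximal cells of both follicles. Of the 10 oocyte and germ cell markers found, the summed level was 26.7 FPKM in F1 proximal against 3.34 FPKM in F1 distal cells, and 62.7 FPKM in F5 proximal against 18.4 FPKM in F5 distal cells. BUB1B alone gave 7.57, 1.89, 16.0 and 12.1 FPKM of these sums, in the same order. Of the 7 that passed the filter, 5 were at least 2-fold higher in F1 proximal cells and 4 in F5 proximal cells. BMP15, DAZL and KPNA7 were below 0.4 FPKM in both distal libraries and passed the filter through their proximal levels. Their part of these counts thus only describes levels. For BMP15, a growth factor made by the oocyte, there were 64 reads from F1 proximal against 2 from F1 distal cells, and 208 from F5 proximal against 5 from F5 distal cells. DDX4, a germ cell helicase, had 0 reads in 3 libraries and 2 reads in F1 proximal cells. The 6 epithelial markers found summed to 29.9 FPKM in F1 proximal against 5.45 FPKM in F1 distal cells, and to 36.7 in F5 proximal and 11.2 in F5 distal cells. EPCAM gave 21.7 FPKM of this in F1 proximal against 0.571 in F1 distal cells, and 29.0 in F5 proximal against 7.54 in F5 distal cells, while MSLN was lower in F1 proximal than F1 distal cells, at 2.72 against 3.60 FPKM; KRT18 was at 0 in all 4 libraries. The 12 endothelial markers found summed to 178 FPKM in F1 proximal against 161.3 FPKM in F1 distal cells. In F5 the sums were 103.9 in proximal and 66.2 in distal cells. CLDN5 gave 121.5 and 108.8 FPKM of these in F1 proximal and distal cells, and 30.9 and 6.64 in F5. EGFL7 was close to even, at 44.5 to 51.2 FPKM. EMCN stood at 3.67 FPKM in F1 proximal against 0.116 in F1 distal cells, and at 10.6 against 0.986 in F5. Of the 5 that passed the filter, 1 was at least 2-fold higher in F1 proximal and 2 in F5 proximal cells, and 0 were 2-fold lower. EMCN passed the filter through its proximal levels, so its part of these counts only describes levels. CDH5 and KDR stayed below 0.4 FPKM in every library. The part of oocyte, epithelial or endothelial RNA in the HBEGF, AREG and ERBB4 values was not tested.

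Between follicles, TGFA fell in FPKM as deposited and no member was called higher. TGFA stood at 4.97 FPKM in F1 proximal, 4.33 in F1 distal, 8.33 in F5 proximal and 9.15 in F5 distal cells, on 40, 27, 62 and 71 reads. The F1 to F5 ratio was 0.596 in proximal cells (0.390 to 0.902) and 0.473 in distal cells (0.292 to 0.746). In the fit with position as a block its log2 difference was -0.79 (SE 0.15, limma adjusted p = 0.0242). The level rests on few reads, since the TGFA gene model is short, at 447 bases. Its call was lost after median-ratio scaling (-0.45, limma adjusted p = 0.0582) and with voom weights (-0.89, limma adjusted p = 0.0646).

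Of the 5 members tested between the follicles 1 was called lower and 0 higher, where 35.8% of all 11203 genes were called lower and 10.4% higher. ZP3 alone held 2051165 of 18020270 reads in F1 proximal and 2141563 of 13948790 in F1 distal cells. In F5 it held 329770 of 16654793 reads in proximal and 353996 of 17351242 in distal cells. How far this alters the FPKM of other genes between follicles was not tested. The 5 had a median log2 difference of -0.50, beside -0.33 over all genes, and after median-ratio scaling the medians were -0.24 and 0.00. BTC was lower in F1, by a ratio of 0.611 in proximal cells (0.406 to 0.913) and 0.574 in distal cells (0.309 to 1.03). It was not called (limma adjusted p = 0.0644). After median-ratio scaling the BTC ratios were 0.758 and 0.795, and the fitted difference was -0.24 and was not called. ERBB4 had an F1 to F5 ratio of 0.462 in proximal cells (0.274 to 0.761) and 0.355 in distal cells (0.0852 to 1.13). For AREG the ratios were 0.575 in proximal cells (0.326 to 0.993) and 0.498 in distal cells (0.0474 to 3.04). Median-ratio scaling gave proximal and distal ratios of 0.573 and 0.492 for ERBB4, and of 0.713 and 0.689 for AREG. HBEGF differed by position in this comparison, at 0.874 in proximal cells (0.586 to 1.30) and 0.0778 in distal cells (0.00185 to 0.5004), the second on 1 F1 read against 16 F5 reads. EGF had 0 reads in F1 distal cells, which against a floor of 3 reads in that library was at least 6.97-fold lower than F5 distal cells.

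Neither EGFR nor ERBB2 was called between follicles. EGFR had an F1 to F5 ratio of 0.964 in proximal cells (0.924 to 1.005) and 0.891 in distal cells (0.854 to 0.929), and a fitted log2 difference of -0.11 (SE 0.0987, limma adjusted p = 0.4). After median-ratio scaling its difference was 0.27, the opposite direction, so EGFR has no fixed direction between the follicles. ERBB2 had ratios of 0.678 in proximal cells (0.449 to 1.02) and 0.809 in distal cells (0.533 to 1.22). By the 2-fold rule on log2(FPKM + 1), 0 of 5 members were lower or higher in F1 at either position. Of all genes, 9.85% were lower and 4.46% higher in F1 proximal cells than in F5 proximal cells. In F1 distal cells 17.8% were lower and 5.36% higher than in F5 distal cells. By the rule on the FPKM ratio with its interval, 1 of 8 members, ERBB4, was lower in F1 proximal cells, where 13.1% of 16555 genes were. In F1 distal cells 3 of 8 were lower, EGF, TGFA and HBEGF, where 21.3% of 15767 genes were, and 0 of 8 were higher at either position, where 5.12% of genes were in proximal and 6.15% in distal cells.

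**Figure D3:**
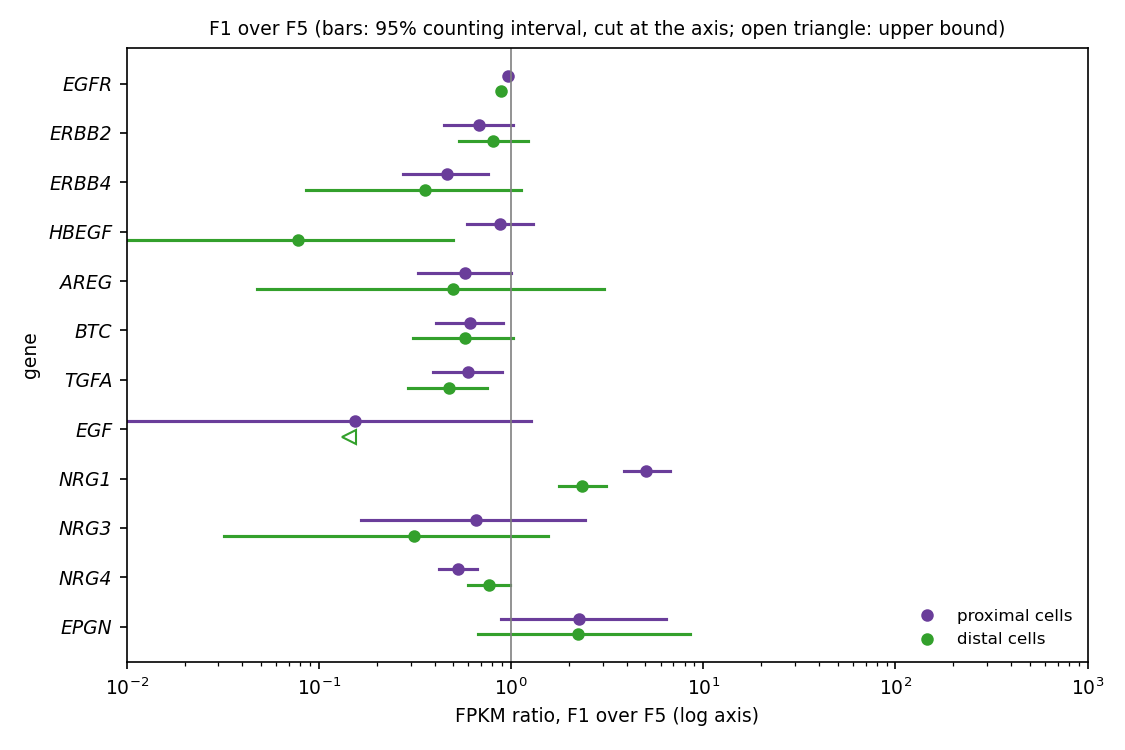
Ratio of FPKM in F1 over F5 (log axis) for each gene in proximal and in distal cells; dots are ratios of 1 library to 1 library, bars 95% counting intervals cut at the axis, and the open triangle an upper bound against a floor of 3 reads. NRG1 lies to the right of 1 at both positions, at 5.06 and 2.35, as does EPGN, whose intervals span 1. All other genes drawn lie to the left at both positions, several with intervals that span 1. NRG2 is not drawn.

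The other ligands of the family were the neuregulins, which bind ERBB4 and in some cases also ERBB3, and EPGN, epigen, which binds EGFR. All 5 were found and 2 passed the filter. NRG1 (ENSGALG00000015422, chromosome Z, 53782385 to 54246036) rose in F1. It stood at 7.96 FPKM in F1 proximal, 4.50 in F1 distal, 1.57 in F5 proximal and 1.92 in F5 distal cells, on 345, 151, 63 and 80 reads. F1 proximal cells had the highest level. The F1 to F5 ratio was 5.06 in proximal cells (3.86 to 6.73) and 2.35 in distal cells (1.78 to 3.12), with a fitted log2 difference of 1.36 (SE 0.266, limma adjusted p = 0.0254). Without the filter on low values its adjusted p was 0.0514. By position the ratio of NRG1 was 1.77 in F1 (1.46 to 2.16) and 0.820 in F5, where the interval spanned 1 (0.580 to 1.16). The position difference in F1 minus that in F5 was 0.88 on the log2(FPKM + 1) scale for NRG1 and 0.81 for HBEGF, and had no test.

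NRG4 (ENSGALG00000002952, chromosome 10, 2967597 to 2989154) stood at 4.03 FPKM in F1 proximal, 4.39 in F1 distal, 7.60 in F5 proximal and 5.72 in F5 distal cells, on 108 to 223 reads. Its F1 to F5 ratio was 0.530 in proximal cells (0.424 to 0.662) and 0.768 in distal cells (0.598 to 0.981). The second ratio was 1.06 after median-ratio scaling, and the fit did not call NRG4 (limma adjusted p = 0.0705). An unnamed gene model on the opposite strand overlaps NRG4. NRG2, NRG3 and EPGN had at most 17 reads in any library. EPGN, beside AREG and EREG on chromosome 4, stood at 0.421 FPKM in F1 proximal, 0.288 in F1 distal, 0.187 in F5 proximal and 0.128 in F5 distal cells. Its F1 to F5 intervals spanned 1 at both positions.

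The genes that release the ligands and carry or dampen the signal were taken from 4 lists, whose names are broad and do not describe every gene in them. Of these genes, 71 passed the filter, of which 10 rose and 19 fell in F1 relative to F5, where 10.4% of all genes rose and 35.8% fell. These shares of all genes are the background for each list as reported, and no list was tested against it. With median-ratio scaling the counts were 22 and 10, the opposite balance, where 2169 of all 11203 genes rose and 1896 fell. Those counts of all genes are the background for each rescaled count of a list. In the position fit 0 of the 71 were called. Ligand shedding and trafficking genes included 2 of 7 that rose and 1 that fell. After median-ratio scaling the counts were 3 and 0. TIMP3, an inhibitor of ADAM17, stood at 182.7 FPKM in F1 proximal, 214.4 in F1 distal, 59.2 in F5 proximal and 67.8 in F5 distal cells, and rose by a log2 difference of 1.63 (SE 0.0885, limma adjusted p = 0.00828). RHBDL3, a member of the rhomboid family, also rose. ADAM17, the main protease that sheds HBEGF, AREG and TGFA, stood at 32.2 FPKM in F1 proximal, 28.8 in F1 distal, 44.7 in F5 proximal and 41.9 in F5 distal cells and fell by 0.49 (limma adjusted p = 0.0261), but by 0.11 after median-ratio scaling, where it was not called (limma adjusted p = 0.392). RHBDF2, which brings ADAM17 to the cell surface, was 2.26-fold higher in F1 proximal than F1 distal cells (1.85 to 2.78) and 1.25-fold higher in F5 proximal than F5 distal cells (1.08 to 1.45). ADAM9 was also named for its position difference and was not called between follicles.

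Adaptors and kinases had 3 of 28 that rose and 7 that fell, with a median log2 difference of -0.23, and 7 and 4 after median-ratio scaling. EPS8, a substrate of EGFR, rose by 1.26 (SE 0.122, limma adjusted p = 0.0122), and SOS1, which activates RAS, rose by 0.55, a call lost without the filter on low values (limma adjusted p = 0.0647). PIK3R1, the regulatory subunit of PI3-kinase, stood at 17.0 FPKM in F1 proximal, 10.3 in F1 distal, 43.6 in F5 proximal and 41.1 in F5 distal cells. It fell by 1.604 (SE 0.181, limma adjusted p = 0.0132). PDPK1, PIK3CA and VAV2 fell by 0.90, 0.89 and 0.81, all with an adjusted p under 0.05 in limma, and after median-ratio scaling VAV2 did not pass (limma adjusted p = 0.0522). By position, GAB1, a docking protein of EGFR, was 1.49-fold higher in F1 proximal than F1 distal cells (1.30 to 1.71) and 1.35-fold higher in F5 proximal than F5 distal cells (1.19 to 1.53). PLCG1, phospholipase C gamma, was lower in F5 proximal than F5 distal cells, at a ratio of 0.781 (0.762 to 0.800). In F1 its proximal to distal ratio was 0.9899, with an interval that spanned 1 (0.9585 to 1.022).

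The list named feedback inhibitors had 9 of 24 that fell, close to the share of all genes, and 2 that rose, with a median of -0.42. After median-ratio scaling 4 fell and 3 rose. Those that fell as reported included EPS15, STAM and HGS, which act in receptor uptake and sorting. DUSP1, a phosphatase of MAP kinases, stood at 3.63 FPKM in F1 proximal, 0.495 in F1 distal, 9.52 in F5 proximal and 4.89 in F5 distal cells, and fell by 1.58 (SE 0.247, limma adjusted p = 0.0178). LRIG2 fell by 1.43, SOCS3, an inhibitor of cytokine signalling, by 1.33 on 3 F1 reads at each position, and DUSP7, a phosphatase of ERK, by 1.21. PTPRK, a receptor phosphatase that acts on EGFR, rose by 1.10 (SE 0.185, limma adjusted p = 0.0198), and LRIG1, which drives the breakdown of ERBB receptors, rose by 0.55 (limma adjusted p = 0.0495). The call of LRIG1 was lost with a pseudocount of 0.1 FPKM, a common total and no filter (limma adjusted p = 0.0564, 0.0518 and 0.0827). By position the list had a median of 0.17, where that of all genes was 0.14, and after median-ratio scaling -0.01, where it was -0.04. DUSP4, induced by ERK and acting against it, stood at 8.62 FPKM in F1 proximal against 2.19 in F1 distal cells, and at 10.7 FPKM in F5 proximal against 3.60 in F5 distal cells. Its ratio was 3.94 in F1 (2.503 to 6.45) and 2.97 in F5 (2.12 to 4.23), with a position difference of 1.47 (SE 0.149, limma adjusted p = 0.12). ERRFI1, which binds and blocks the EGFR kinase, had a ratio of 1.96 in F1 (1.61 to 2.40) and 1.15 in F5 (0.989 to 1.32).

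Transcriptional targets of the cascade had 3 of 12 that rose and 2 that fell, with a median of 0.37, and 9 and 2 after median-ratio scaling. JUN stood at 257 FPKM in F1 proximal, 185.1 in F1 distal, 40.9 in F5 proximal and 24.9 in F5 distal cells and rose by 2.73 (SE 0.105, limma adjusted p = 0.00544). EGR1, an immediate early factor, stood at 6.53 FPKM in F1 proximal, 3.50 in F1 distal, 0.992 in F5 proximal and 0.441 in F5 distal cells and rose by 1.78 (SE 0.169, limma adjusted p = 0.0119). KLF6 rose by 0.78. CCND1, cyclin D1, which carries growth signals into the cell cycle, stood at 15.2 FPKM in F1 proximal, 9.75 in F1 distal, 34.1 in F5 proximal and 35.3 in F5 distal cells and fell by 1.44 (SE 0.192, limma adjusted p = 0.0149). ELK3 fell by 1.16. By position, ETV5, a factor induced by ERK signalling, was 1.92-fold higher in F1 proximal than F1 distal cells (1.70 to 2.17) and 1.76-fold higher in F5 proximal than F5 distal cells (1.56 to 1.99). Of the 12 targets 11 lay above 0 in the position fit and the list had a median of 0.28, where 8547 of 11203 genes lay above 0 with a median of 0.14. After median-ratio scaling the list's median was 0.10, and that of all genes -0.04. FOS and IER5 were also named for their position differences.

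**Figure D4:**
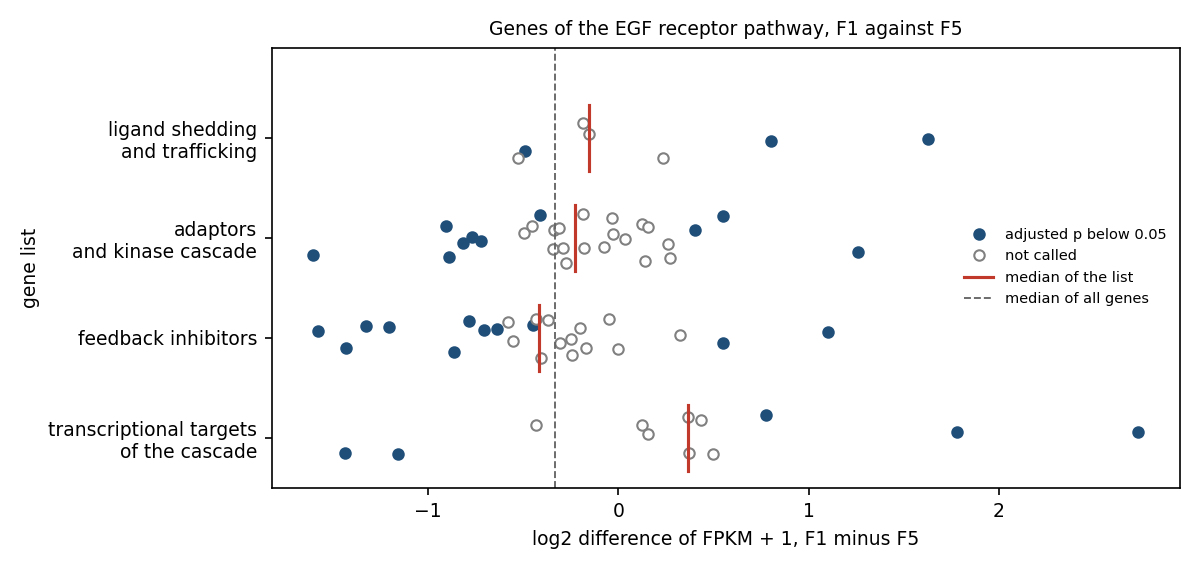
Log2 difference of FPKM + 1 in F1 minus F5 for the 71 genes of 4 pathway lists; each dot is a gene, filled where limma's adjusted p was below 0.05, red bars are list medians, and the dashed line is the median of all genes at -0.33. In the list named feedback inhibitors 9 filled dots lie on the left and 2 on the right, as reported and before any rescaling. JUN and EGR1 lie farthest to the right among the targets.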

How the data were processed

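Per the file headers, the authors deposited FPKM for each library and log2 fold changes of proximal over distal cells. TopHat2 2.0.12 and HTSeq 0.6.1 were used, per the submitters' processing notes. Coordinates are as deposited, and their build was not given in the sources used. Members and lists were chosen with earlier results of these data known. A gene name was used for 11912 genes, where it was unique, was listed by RefSeq (GRCg7b) and lay on a matching or unlisted chromosome. Reads were recovered as the smallest whole numbers at a whole gene length that give all 4 FPKM values, within 1e-06 reads. This succeeded for 16893 of 16894 genes above 0, and recovered reads made up 97.3% to 97.9% of the library totals. A common factor in a gene's reads and length would leave both understated. Recovery and fits were run on simulated data. The simulated libraries had no shift shared by most genes, unlike these follicles, so they cannot tell how far scaling alters the follicle calls.

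Additive fits used limma 3.58.1 in R 4.3.3 on log2(FPKM + 1), which understates changes of low genes, with a mean-variance trend, over 11203 genes that averaged 1 FPKM or more (Benjamini-Hochberg, two-sided, threshold 0.05). There is 1 residual degree of freedom, the position-by-follicle interaction. Libraries are not said to be separate animals, so p-values reflect only how these 4 libraries vary, possibly for technical reasons. Folds against 0 reads used a floor of 3 reads a library. Pathway genes were named by rule: per list up to 4 called in each direction between follicles and the 3 largest differences in each position pair at a mean of at least 5 FPKM; some of these genes are not reported here. A rule naming genes of like pattern applied to members with a mean of 5 FPKM and a range of 1 on the log2 scale, and no member met it.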

Additional observations from a re-analysis of the deposited data

How the results depend on the processing

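Each fit was repeated with 7 alternatives. After median-ratio scaling 2169 genes rose and 1896 fell between follicles, against 1168 and 4010 as reported, and the pathway lists had 22 that rose and 10 that fell; by construction the scaling puts the median gene near 0, against -0.33 as reported. Of the members, 0 were then called lower in F1, as with voom weights, and 2 with a pseudocount of 5 FPKM (TGFA and BTC); the cause was not tested. In the position fit a pseudocount of 5 FPKM gave 154 higher and 5 lower genes, with 1 member (HBEGF) and 2 pathway genes higher, and a common total gave 51 higher genes. HBEGF had passed the filter through its proximal levels, so its call only describes these levels. The position difference of TGFA was 0.02 as reported, -0.15 after median-ratio scaling and -0.014 with voom weights; that of NRG4 was -0.042 after median-ratio scaling. The F1 to F5 difference of EGFR became 0.27 under that scaling, and in distal cells its ratio 1.23 and that of NRG4 1.06. With a pseudocount of 5 FPKM, 0 members passed the 2-fold rule in either position pair, and with 0.1 FPKM 2 were lower in F1 distal cells. By the ratio rule added after seeing the data, 3 members were higher in proximal cells of each follicle and 1 was lower in F5 proximal than F5 distal cells; in F1 relative to F5, 1 was lower among proximal cells and 3 among distal cells. The labels give no replicate numbers to pair by; the position fit paired libraries by follicle and the follicle fit by position. Without replicates, no library could be left out. Levels of EGF, AREG, ERBB4, NRG2, NRG3 and EPGN rest on at most 50 reads a library.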
